A study of Homo sapiens with 28 samples.

Results

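The cytosolic ribosomal protein genes code for the proteins that, with the ribosomal RNAs, build the ribosome of the cytosol. They were picked from the count table by symbol: RPL or RPS followed by a number, alone or with the ending A, X, L or L1, together with RPLP0, RPLP1, RPLP2, RPSA and FAU, and without pseudogenes and the RPS4Y genes. Of 30887 rows, 85 carried such a symbol, and 83 of these had a mean of at least 10 counts over the 28 libraries. Sorted by symbol alone, paralogues included, the 83 comprise 50 genes of the large subunit and 33 of the small subunit, FAU among the latter. The rows left out were RPS10L and RPL3L, with means of 0.285 and 0.893 counts, while the member with the lowest level, RPL39L, still had 14.9 ± 1.496 CPM in control cells. RPL36AL and RACK1 (listed as GNB2L1) belong to the ribosome too, but fall outside the symbol rule, and they serve here as comparison.

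Kelly is an established human neuroblastoma line with an amplified MYCN oncogene. Its cells were reverse transfected with 25 nM of a microRNA mimic, a short synthetic RNA that stands in for a mature microRNA, and were harvested 48 h later. Each of the 7 groups has 4 libraries of messenger RNA. The mimics copy miR-99b-5p, encoded on chromosome 19, miR-380-3p and its chromosome 14 neighbour miR-485-3p, then miR-100-3p (chromosome 11), miR-1915-3p (chromosome 10) and miR-1283 (chromosome 19), and the last group received a scrambled control. The groups share the line, the reagent and the time, and the control received a transfected RNA as well. Whether replicate libraries came from separate cultures is not stated, so the p-values measure the spread between these libraries, which may be technical. An extra suffix of unknown meaning closes the titles of replicates 1 and 4 of miR-1915-3p.

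A ribosome of the cytosol has a small subunit, which reads the messenger RNA, and a large subunit, which joins the amino acids. Each carries a nearly fixed set of proteins, most of them in equal copies, and protein made in excess of its partners is broken down. The messenger RNAs of these proteins are short and abundant, and in vertebrates most of them start with a run of pyrimidines, the 5′ terminal oligopyrimidine tract, through which mTOR signalling sets their translation. MYC and MYCN are known to raise ribosome production, which is why this family is of interest in a MYCN-driven tumour line. Unassembled RPL5 and RPL11, bound to 5S ribosomal RNA, hold back MDM2 and so stabilise p53.

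Library totals ran from 10992874 to 23296088 expected counts. All 9 markers of noradrenergic neuroblastoma were present, from TH with a median of 187 CPM to MYCN with 4250 CPM. For these markers and for the slopes below, CPM is the count scaled by library total alone. Elsewhere it is scaled by library total and TMM factor. Of the 8 markers of other cell types that were in the table, DCN and PECAM1 had a median of 0 CPM and the highest value was 13.6 CPM, for COL1A1. The sum of the 8 ran from 7.014 to 8.093 CPM under miR-99b-5p and from 9.586 to 12.22 CPM under miR-485-3p, against 12.94 to 15.39 CPM in control cells, and overlapped the control under the other 4 mimics. The sum of the neuroblastoma markers ran from 8949 to 10780 CPM under miR-99b-5p, from 9208 to 10880 CPM under miR-380-3p and from 8137 to 11050 CPM under miR-485-3p, against 12340 to 13250 CPM in control cells. Of these 9 markers, 4 were called lower under each of these mimics (44.4%, against 16.6%, 10.9% and 21.1% of all genes). Under miR-100-3p 1, MYCN, was higher and 3 were lower (44.4%, against 5.96%). Under miR-1915-3p 1, again MYCN, was lower (11.1%, against 0.246%). MYCN, the most abundant of the 9 by median, is part of their sum and is counted again among the regulators below. The part of these markers in the results was not tested. Libraries of the same group differed in how their counts depended on transcript length. The length slope, the change in log2 CPM per log2 unit of length against the mean of all libraries, ran from -0.1177 to 0.0717. The 4 libraries farthest from 0 were miR-99b-5p replicate 7 (0.0717), miR-380-3p replicate 2 (-0.0713), miR-485-3p replicate 2 (-0.1177) and miR-1283 replicate 4 (-0.0729), and counts of called members are also given without them. The mature strands that the 6 mimics copy are shown first, because the matches described further on depend on their seeds. They come from RefSeq (GRCh38.p14), written 5′ to 3′, with the seed, bases 2 to 8, in capitals. No seed is shared between mimics.
miR-99b-5p: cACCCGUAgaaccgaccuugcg
miR-380-3p: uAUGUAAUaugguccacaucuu
miR-485-3p: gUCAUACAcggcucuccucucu
miR-100-3p: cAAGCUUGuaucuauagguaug
miR-1915-3p: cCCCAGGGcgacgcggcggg
miR-1283: uCUACAAAggaaagcgcuuucu

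Summed, the 83 genes held 6.415% to 7.877% of the counts of a library. Their share was 7.497% ± 0.345 under miR-99b-5p, 7.26% ± 0.397 under miR-380-3p, 7.05% ± 0.256 under miR-485-3p, 6.95% ± 0.355 under miR-100-3p, 7.33% ± 0.337 under miR-1915-3p and 7.04% ± 0.464 under miR-1283, against 7.12% ± 0.171 in control cells (SD, n = 4 each). Every mimic group overlapped the control libraries, which ran from 6.897% to 7.312%. These are shares of a library, so fewer cells of a kind and less RNA per cell cannot be told apart from them.

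**Figure D1:**
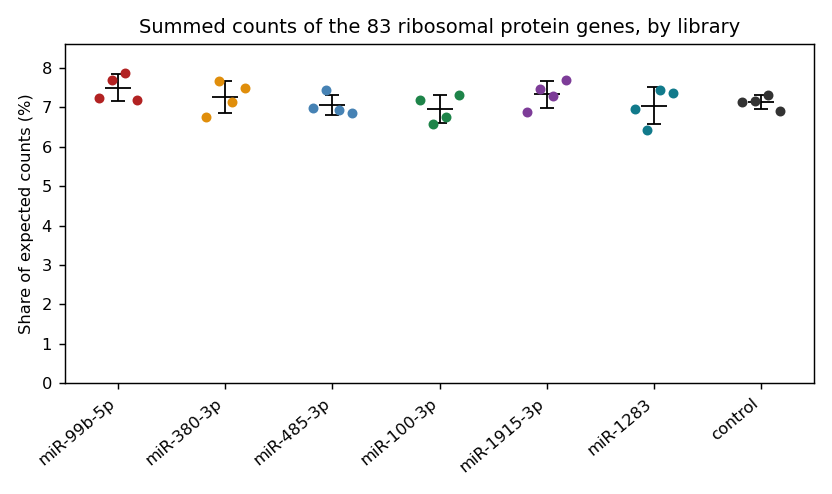
Share of the expected counts of each library that falls on the 83 ribosomal protein genes, in percent, for the 6 mimics and the control. Points are libraries and bars are mean ± SD of 4. The groups overlap, with the lowest library at 6.415% (miR-1283) and the highest at 7.877% (miR-99b-5p).

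Within control cells the members differed in level far more than they did between treatments. Per kilobase of transcript, the 78 members other than the paralogues RPL7L1, RPS27L, RPL22L1, RPL26L1 and RPL39L ranged from 277.3 CPM per kb for the stalk protein RPLP2 to 3458 CPM per kb for RPS2, a 12.5-fold range, with a median of 1259. RPS24 (3012), RPL41 (2962) and RPS27 (2600) followed RPS2, and RPS26 (382.2), RPS13 (385.4) and FAU (407.6 CPM per kb), whose product is cut into a ubiquitin-like part and a small-subunit protein, stood just above RPLP2. The SDs of RPS24 (101) and RPL41 (245 CPM per kb) are larger than the gap between these genes, as are those of RPS26 (34.4) and RPS13 (17.98). The 5 paralogues lay below all others, from 19.7 CPM per kb for RPL39L to 92.5 for RPL7L1. Across all 28 libraries RPL7A varied least, with a coefficient of variation of 5.96%, and RPLP1 most, with 23.3%. Many members have near-identical processed pseudogenes, and 71.6% of their deposited counts were not whole numbers, against 10.17% over the whole table, so that the split of reads between copies is uncertain. The 400 rows of ribosomal protein pseudogenes held a mean of 0.064% of the counts under miR-99b-5p.

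Few members were called under any mimic in the main fit. More were called under miR-99b-5p with a length or GC covariate, as given further on. Each mimic was compared with the control by the quasi-likelihood test of edgeR over 15058 genes, with p-values adjusted over all of them and calls made below 0.05. Under miR-99b-5p 4 members were higher and 1 was lower, which is 6.02% of the 83, against 16.6% of all genes tested (8.11% higher and 8.48% lower). Under miR-485-3p 1 member was higher and 0 were lower (1.2% of the members, against 21.1% of all genes, 10.5% higher and 10.6% lower). Under miR-100-3p 0 were higher and 1 was lower (1.2%, against 5.96%, 2.9% higher and 3.05% lower). No member was called under miR-380-3p (10.9% of all genes, 5.6% higher and 5.25% lower), miR-1915-3p (0.246%, 0.0133% higher and 0.232% lower) or miR-1283 (0.0199%). For these 3 mimics, 11, 4 and 0 members had an unadjusted p under 0.05. This was 13.3%, 4.82% and 0% of the members, against 24.3%, 6.35% and 3.01% of all genes. DESeq2 and limma-voom each called 1 member, RPSA, under miR-380-3p (1.2%, against 11.9% and 10.9% of all genes) and 0 under miR-1915-3p and under miR-1283. Members whose 4 mimic libraries all lay above, or all below, the 4 control libraries numbered 14 and 3 under miR-99b-5p, where 12.4% and 11.5% of all genes did so. They numbered 2 and 0 under miR-380-3p (9.56% and 7.88% of all genes), 2 and 2 under miR-485-3p (9.67% and 10.5%), 1 and 1 under miR-100-3p (6.41% and 5.91%), 6 and 0 under miR-1915-3p (3.06% and 3.57%) and 0 and 0 under miR-1283 (1.43% and 1.64%). In the joint test of all 7 groups, which has no direction, 18 members differed, or 21.7%, against 48.7% of all genes.

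The changes of the members were also small. The median log2 change of the members was 0.105 under miR-99b-5p, 0.037 under miR-380-3p, -0.025 under miR-485-3p, -0.011 under miR-100-3p, 0.047 under miR-1915-3p and -0.018 under miR-1283, while the medians of all genes lay between -0.0122 and 0.0246. Under miR-99b-5p 59 members had a positive change and 24 a negative one. The median absolute log2 change was 0.128 under miR-99b-5p, against 0.179 over all genes, and 0.049 under miR-485-3p, against 0.194. It was also lower under miR-1283, where only 3 of all genes were called (0.033, against 0.076). The members were not compared with genes of equal level, so these gaps and the interval shares below may reflect precision. For 81, 83, 82, 80, 82 and 82 of the 83 members, taking the mimics in the order of these medians, the 95% interval of the change lay within 1.5-fold in either direction. The exceptions were RPS28 and RPLP1 under miR-99b-5p, RPL39L under miR-485-3p, RPLP1, RPS21 and RPS26 under miR-100-3p, RPLP2 under miR-1915-3p and RPLP1 under miR-1283. Over all genes the share with such an interval ran from 60.8% under miR-485-3p to 75.5% under miR-1283. The median standard error of a member was 0.093, against 0.128 over all genes (0.127 under miR-1283).

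**Figure D2:**
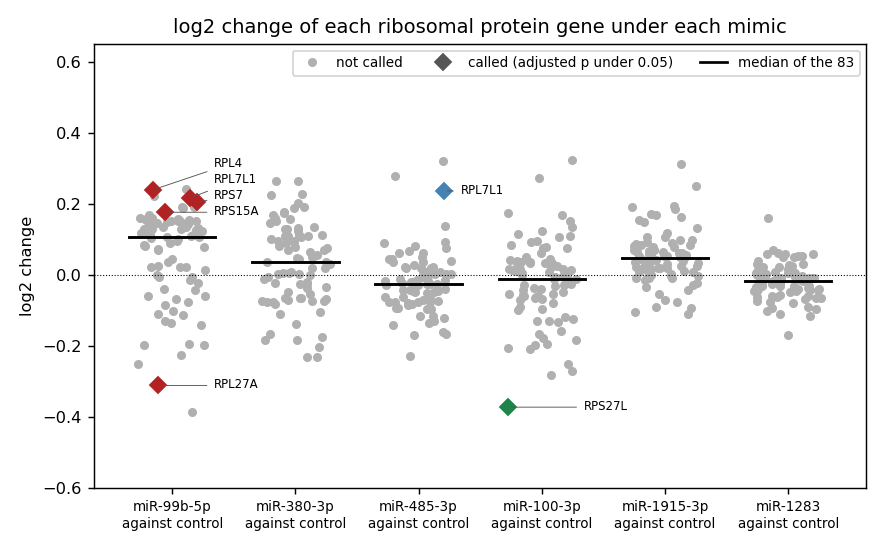
The log2 change against control of each of the 83 ribosomal protein genes under each mimic. Grey points were not called, coloured diamonds were called at an adjusted p under 0.05 and are named, and bars are medians over the 83. All changes lie between -0.387 (RPS28 under miR-99b-5p) and 0.324 (RPS26 under miR-100-3p), and the median under miR-99b-5p, 0.105, is the highest.

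Among the large-subunit proteins the clearest change was that of RPL4, a core protein that lines the exit tunnel of the growing chain. RPL4 (ENSG00000174444, chromosome 15, 66498015 to 66524532, minus strand, GRCh38) had 2471, 2605, 2566 and 2571 CPM under miR-99b-5p, against 2165, 2158, 2213 and 2120 CPM in control cells. Every miR-99b-5p library lay above every control library, and the means were 2553 ± 57.5 and 2164 ± 38.3 CPM (log2 change 0.24 ± 0.05 SE, adjusted p = 0.0013). Under the other 5 mimics its group means ran from 2107 to 2239 CPM, and all 5 groups overlapped the control. RPL4 was the member with the smallest p in the joint test (adjusted p = 0.000515), and it stayed called without any of the 8 libraries of the miR-99b-5p comparison.

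RPL27A, also of the large subunit, went the other way. RPL27A (ENSG00000166441, chromosome 11, 8682411 to 8714759, plus strand, GRCh38) had 289, 317, 323 and 335 CPM under miR-99b-5p, against 390, 372, 419 and 386 CPM in control cells, with no overlap between the groups. Its means were 316 ± 19.5 and 392 ± 19.6 CPM (log2 change -0.31 ± 0.09, adjusted p = 0.0197), and it was the only member called lower under this mimic. The call was lost without miR-99b-5p replicate 2 or control replicate 4. Under the other mimics RPL27A averaged 374 to 405 CPM.

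Of the other large-subunit proteins, RPL3, RPL22 and RPL11 differed in the joint test without being called under a single mimic. RPL3, which lies at the peptidyl transferase centre, averaged 2295 ± 153 CPM under miR-99b-5p and 1889 ± 189 CPM under miR-100-3p, against 2066 ± 68.6 CPM in control cells (joint adjusted p = 0.0295). RPL22, a protein on the outer face of the subunit, had 600 ± 94.7 CPM under miR-99b-5p and 767 ± 75.5 CPM under miR-380-3p, against 687 ± 42.8 CPM in control cells (joint adjusted p = 0.0264). Its miR-99b-5p libraries were uneven, with 740, 532, 573 and 555 CPM. RPL11, which joins RPL5 in the 5S particle, had 1548, 1328, 1347 and 1338 CPM under miR-99b-5p and 1153, 1141, 1015 and 1143 CPM under miR-485-3p, against 1247, 1226, 1317 and 1192 CPM in control cells. It averaged 1390 ± 106 CPM under miR-99b-5p and 1113 ± 65.6 CPM under miR-485-3p, against 1246 ± 53.1 CPM in control cells (joint adjusted p = 0.014). All 4 miR-99b-5p libraries of RPL11 lay above, and all 4 miR-485-3p libraries below, the control libraries, yet neither comparison was called (adjusted p = 0.183 and 0.153).

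RPL5, the partner of RPL11, had 1229, 1205, 1244 and 1286 CPM under miR-99b-5p, against 1093, 1089, 1136 and 1039 CPM in control cells, and was not called (log2 change 0.19 ± 0.07, adjusted p = 0.0852). The stalk proteins, which recruit the elongation factors, were not called under any mimic either. RPLP0 averaged 2342 ± 138 CPM under miR-1915-3p, against 2050 ± 155 CPM in control cells, without overlap (adjusted p = 0.826), and the intervals of RPLP1 and RPLP2 were among the widest of the family, with standard errors of 0.23 and 0.19. RPL10 and RPL23 had changes of 0.22 ± 0.13 and 0.15 ± 0.09 under miR-99b-5p (adjusted p = 0.273 and 0.265).

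In the small subunit, RPS7 and RPS15A were called higher under miR-99b-5p. RPS7 (ENSG00000171863, chromosome 2, 3575205 to 3580920, plus strand, GRCh38) had 963, 1087, 1178 and 1125 CPM under miR-99b-5p, against 925, 942, 987 and 926 CPM in control cells (log2 change 0.20 ± 0.06, adjusted p = 0.0289). The lowest miR-99b-5p library lay within the control range. RPS15A (ENSG00000134419, chromosome 16, 18781295 to 18790383, minus strand, GRCh38) had 774, 766, 818 and 753 CPM under miR-99b-5p, against 704, 671, 731 and 648 CPM in control cells (0.18 ± 0.06, adjusted p = 0.0494). Its groups did not overlap, but it sits at the threshold. Each of these calls was lost without 6 of the 8 libraries, left out in turn: RPS7 without miR-99b-5p replicate 3, 4 or 7 or control replicate 1, 2 or 5, and RPS15A without miR-99b-5p replicate 2, 3 or 4 or control replicate 1, 2 or 5. Under miR-380-3p, RPS7 averaged 1060 ± 35.8 CPM, above all controls, and was not called (adjusted p = 0.1).

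RPS27A and RPSA differed among the 7 groups and were not called under a single mimic. RPS27A (ENSG00000143947, chromosome 2, 55231903 to 55235853, plus strand, GRCh38) codes for a ubiquitin fused to a small-subunit protein. It had 519, 558, 522 and 529 CPM under miR-485-3p, against 589, 616, 628 and 553 CPM in control cells, so that 3 of 4 mimic libraries lay below the control range (log2 change -0.17 ± 0.06, adjusted p = 0.0595). Under miR-99b-5p, miR-380-3p and miR-1915-3p its change was 0.15 to 0.17, and the joint adjusted p was 0.000674. The call of RPS27A under miR-485-3p depended on the setting: the adjusted p was 0.0291 with DESeq2 and 0.0588 with limma-voom, 0.0131 with the length covariate and 0.147 with no filter on low counts. RPSA, a small-subunit protein also known as the laminin receptor, had 1665, 1900, 1794 and 1666 CPM under miR-380-3p and 1481, 1468, 1474 and 1335 CPM under miR-485-3p, against 1537, 1500, 1578 and 1496 CPM in control cells. The miR-380-3p libraries lay above and the miR-485-3p libraries below every control library. RPSA averaged 1756 ± 113 CPM under miR-380-3p and 1440 ± 69.8 CPM under miR-485-3p, against 1527 ± 38.0 CPM in control cells (adjusted p = 0.0519 and 0.41; joint adjusted p = 0.0148).

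RPS6, whose phosphorylation by S6 kinases is a standard readout of mTOR activity, showed no called change in its messenger RNA. It averaged 1673 ± 16.1 CPM under miR-99b-5p, against 1521 ± 53.6 CPM in control cells (0.14 ± 0.08, adjusted p = 0.286). RPS3, which also acts in DNA repair, the X-linked RPS4X, RPS19, a gene mutated in Diamond-Blackfan anaemia, and FAU had adjusted p-values of at least 0.226 under each mimic. RPS28 had the lowest change of the family under miR-99b-5p, with 235, 336, 337 and 291 CPM, against 380, 409, 416 and 364 CPM in control cells. Its groups did not overlap, but its standard error was 0.15 (log2 change -0.39, adjusted p = 0.0847).

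**Figure D3:**
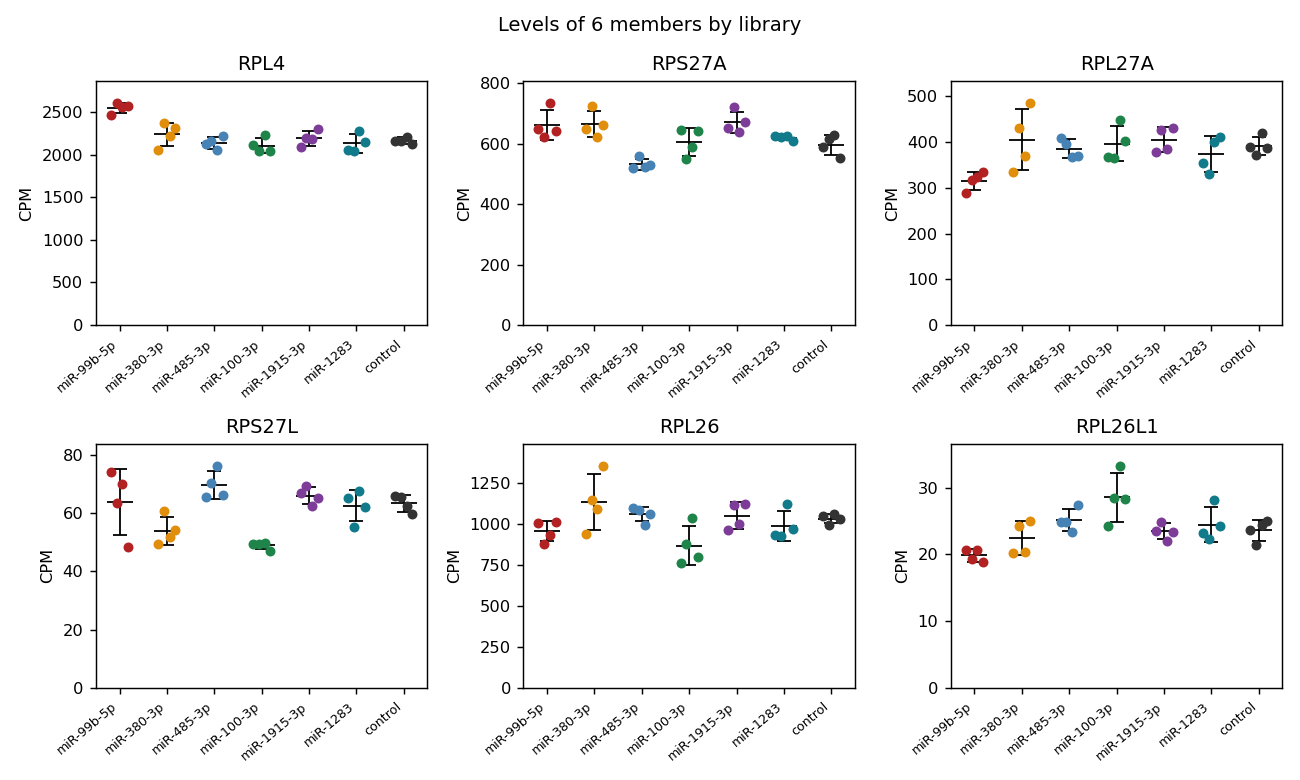
Levels of 6 ribosomal protein genes in CPM (vertical axes from 0), by library, in the 6 mimic groups and the control; points are libraries and bars are mean ± SD of 4. RPL4 is highest and RPL27A lowest under miR-99b-5p, RPS27L is lowest under miR-100-3p (49.0 CPM), and RPS27A is lowest under miR-485-3p (532 CPM).

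The remaining members with the largest changes under a mimic were not called. Under miR-99b-5p RPL34 stood at 0.24 ± 0.10 and RPL26L1 at -0.25 ± 0.09. Under miR-380-3p RPS25 (0.26 ± 0.10), RPS24 (0.26 ± 0.13) and RPL17 (0.23 ± 0.09) had the highest and RPL41 (-0.23 ± 0.11) the lowest change. Under miR-485-3p RPL39L (0.32 ± 0.15) and RPL22L1 (0.28 ± 0.13) stood above the called RPL7L1, and RPS12 (-0.23 ± 0.11) and RPS19 (-0.17 ± 0.15) were lowest. Under miR-100-3p RPS26 (0.32 ± 0.14), RPL26L1 (0.27 ± 0.09) and RPL17 (0.17 ± 0.09) were at the top, and RPLP1 (-0.28 ± 0.23) and RPS21 (-0.27 ± 0.16) stood above RPS27L at the bottom. Under miR-1915-3p RPL22L1 (0.31 ± 0.13), RPLP2 (0.25 ± 0.19) and RPS23 (0.19 ± 0.07) were highest and RPL39L, RPL27 and RPL41 lowest, from -0.11 to -0.09. Under miR-1283 no member lay beyond RPLP1 (-0.17 ± 0.23) and RPL22L1 (0.16 ± 0.13), with RPL41 and RPL29 next to RPLP1 and RPS12 and RPL10 next to RPL22L1. Among the other joint calls, RPL7, RPL39, RPL7A, RPS23 and RPS26 had adjusted p-values of 0.0336 to 0.0494.

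Several ribosomal proteins have a further, rarer gene, and of the 5 such paralogues RPS27L, RPL7L1 and RPL26L1 differed in the joint test. RPS27L, a paralogue of RPS27 that p53 is known to induce, was the only member called under miR-100-3p. RPS27L (ENSG00000185088, chromosome 15, 63125872 to 63158021, minus strand, GRCh38) had 49.5, 49.4, 49.9 and 47.2 CPM under miR-100-3p, against 66.0, 65.6, 62.4 and 59.8 CPM in control cells. The groups did not overlap (log2 change -0.37 ± 0.09, adjusted p = 0.0156). The call was lost without control replicate 2. Under miR-380-3p RPS27L had 49.4, 60.7, 51.8 and 54.2 CPM (-0.23 ± 0.09, adjusted p = 0.119). RPS27 itself stood at 936 ± 40.3 CPM under miR-100-3p, against 913 ± 29.7 CPM in control cells.

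RPL7L1, a nucleolar relative of RPL7, was called higher under both miR-99b-5p and miR-485-3p. RPL7L1 (ENSG00000146223, chromosome 6, 42879618 to 42889925, plus strand, GRCh38) had 310, 332, 348 and 342 CPM under miR-99b-5p and 338, 304, 374 and 335 CPM under miR-485-3p, against 276, 287, 296 and 288 CPM in control cells. Both mimic groups lay wholly above the control (0.22 ± 0.06 with adjusted p = 0.0227, and 0.24 ± 0.06 with adjusted p = 0.0104). The comparisons share the control libraries. The call under miR-99b-5p was lost without miR-99b-5p replicate 4 or 7 or control replicate 1, and that under miR-485-3p without miR-485-3p replicate 3. All 4 miR-1915-3p libraries also lay above the control (0.15 ± 0.06, adjusted p = 0.648).

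RPL26 and its paralogue RPL26L1, whose proteins are nearly the same, had values of opposite sign under miR-100-3p, and neither was called. RPL26 (ENSG00000161970, chromosome 17, 8377516 to 8383250, minus strand, GRCh38) had 761, 877, 1034 and 799 CPM under miR-100-3p, against 1047, 994, 1061 and 1029 CPM in control cells (-0.25 ± 0.09, adjusted p = 0.121). RPL26L1 (ENSG00000037241, chromosome 5, 172958729 to 172969771, plus strand, GRCh38) had 24.2, 28.5, 33.3 and 28.4 CPM under miR-100-3p, against 23.7, 21.4, 24.4 and 25.0 CPM in control cells (0.27 ± 0.09, adjusted p = 0.0856). For both genes the mimic and control libraries overlapped. The library highest in RPL26L1 was also the highest in RPL26. Both differed in the joint test (adjusted p = 0.0273 for RPL26 and 0.0022 for RPL26L1).

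The share of a paralogue in its pair was calculated per kilobase after these values had been seen, and is given without a test. RPL26L1 made up 2.36%, 2.41%, 2.38% and 2.62% of the pair under miR-100-3p, against 1.69%, 1.61%, 1.72% and 1.81% in control cells. No library of the other 5 mimics exceeded 1.92%, so the 4 miR-100-3p libraries stood above all 24 others. RPS27L made up 2.44% ± 0.135 of its pair under miR-100-3p and 2.49% ± 0.076 under miR-380-3p, against 3.21% ± 0.102 in control cells. The share of RPL22L1 in its pair with RPL22 spread more within groups, from 5.39% to 8.05% under miR-485-3p and from 4.66% to 5.49% in control cells. RPL39L, whose protein in mice is largely restricted to male germ cells, made up 1.88% ± 0.469 of its pair with RPL39 under miR-485-3p and 1.53% ± 0.248 in control cells.

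**Figure D4:**
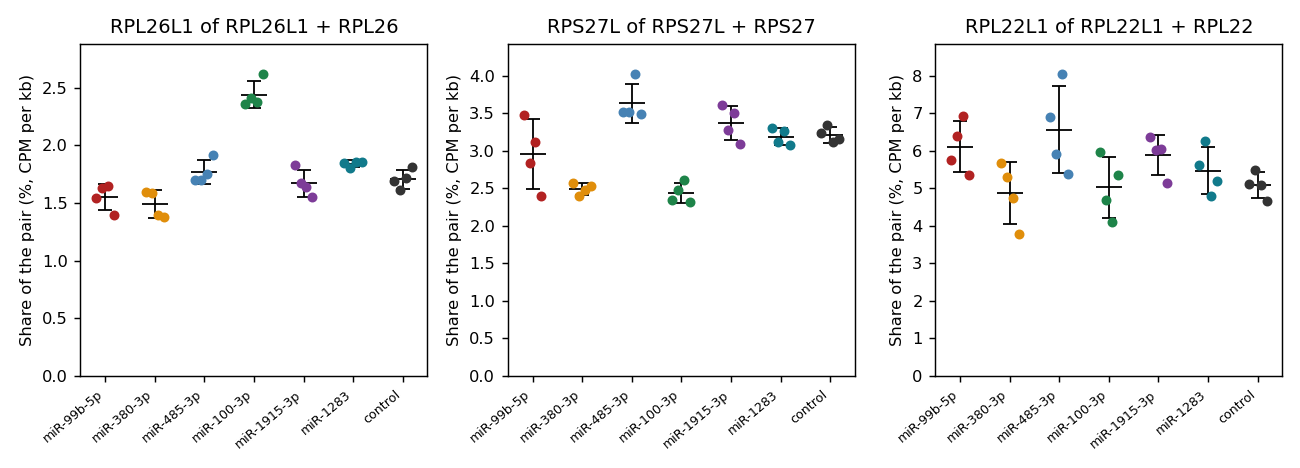
Share of a paralogue in the sum of paralogue and parent gene, in percent of CPM per kilobase, by library, for RPL26L1, RPS27L and RPL22L1; points are libraries and bars are mean ± SD of 4. RPL26L1 lies at 2.36% to 2.62% in the 4 miR-100-3p libraries, above the other 24, and RPS27L is lowest in the miR-100-3p and miR-380-3p groups.

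A microRNA lowers mRNAs whose 3′ UTR pairs with its seed, so the members were searched for the 7 bases complementary to bases 2 to 8, on the sense strand of the GENCODE v29 transcript closest in length to the deposited one. Other kinds of match and other transcripts of a gene were not searched. The median 3′ UTR of the members was 58 bases, against 709 over 12623 genes. None of the 83 held TACGGGT, the match to miR-99b-5p, in its 3′ UTR or coding sequence (0.82% of all genes held it in the 3′ UTR). ATTACAT, for miR-380-3p, was in the 3′ UTR of 3 members or 3.61% (9.79% of all genes), TGTATGA, for miR-485-3p, in 2 or 2.41% (9.63%), and CAAGCTT, for miR-100-3p, in 1 or 1.2% (6.79%). CCCTGGG, for miR-1915-3p, was in 4 or 4.82% (16.54%) and TTTGTAG, for miR-1283, in 1 or 1.2% (13.36%). None of these 11 pairs of gene and mimic was called. The sites with the most negative changes are shown with their surroundings, the match in capitals, because 2 of them lie in the genes just described.
RPL26 for miR-100-3p: aatcttatataCAAGCTTtgattaaaact
RPS27L for miR-380-3p: aagataatgtaATTACATttggttttgta
RPL19 for miR-380-3p: tggcctctgtgATTACATagatcagccat
RPS27A for miR-485-3p: cTGTATGAgtt
RPL22 for miR-485-3p: ctggaaaatttTGTATGAgttcttgaata
In these 5 the log2 change under the matching mimic was -0.25 ± 0.09 for RPL26, -0.23 ± 0.09 for RPS27L, -0.18 ± 0.08 for RPL19, -0.17 ± 0.06 for RPS27A and -0.115 ± 0.091 for RPL22, with adjusted p-values of 0.0595 (RPS27A) to 0.418 (RPL22). They ranked 4th, 2nd, 4th, 3rd and 10th lowest of the 83 under that mimic. As they were picked for their negative changes, these ranks are no test, and of all 11 pairs only these 5 were negative. RPL7L1 held a match for miR-380-3p, miR-1915-3p and miR-1283, and its changes there were 0.08, 0.15 and 0.06, ranking 53rd, 75th and 78th lowest. RPL13A, RPL29 and RPS4X held the miR-1915-3p match, stood at 0.02 each and ranked 31st, 26th and 27th. In the coding sequence 14 pairs held a match, with changes from -0.184 to 0.061, of which 9 were negative and none was called. RPS27L, the member called under miR-100-3p, holds no such match to that mimic in the 3′ UTR or coding sequence of the transcript searched.

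What most members share in sequence lies at the start of the gene. RefSeq start windows (GRCh38.p14, 250 bases before to 50 from the start) were found for 67 of the 83. Within 20 bases of the start, on the strand of the gene, the letters CTTTC, or else CTTCC, or else the letters CTCTT, which can overlap each other, stood in 49 of 67, or 73.1%, against 17.8% of 12978 genes of the table. The E-box CACGTG, a palindrome and the letters that MYC proteins are known to bind, was in the window of 4 of 67, or 5.97%, against 9.56% of these genes. The windows of 5 members that the results turn on are printed from 10 bases before the annotated start to 20 from it, on the strand of the gene, with the pyrimidine run that holds such a match in capitals. RPL4 and RPL27A, with changes of opposite sign under miR-99b-5p, both have the run, and RPS7, RPL7L1 and RPS27L have none of these letters near this start. A different start site in these cells would move the window.
RPL4, chr15:66504836-66504865: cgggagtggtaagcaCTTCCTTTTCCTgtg
RPL27A, chr11:8682782-8682811: gaaggCCTTCCTTTTTCgtctgggctgcca
RPL26, chr17:8383174-8383203: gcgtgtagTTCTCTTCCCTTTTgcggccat
RPS7, chr2:3575250-3575279: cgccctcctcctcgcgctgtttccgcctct
RPL7L1, chr6:42879606-42879635: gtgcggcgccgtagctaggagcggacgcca

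The members deviated together in single libraries. In miR-380-3p replicate 1, 77 of 83 lay below their group mean, and in replicate 2, 78 lay above it, while 49% and 50.4% of all genes lay above theirs. In miR-1283 replicate 2, 79 lay below, and in miR-1915-3p replicates 1 and 4, 78 lay below and 75 above. The control libraries had 24 to 66 members above their mean. In the libraries just named the length slope was 0.0553 in miR-380-3p replicate 1 and -0.0713 in replicate 2, 0.0444 in miR-1283 replicate 2, and 0.0299 and -0.0532 in miR-1915-3p replicates 1 and 4. In miR-1283 replicate 3, with a slope of -0.0002, 65 members lay above the mean. The part of the slope in these deviations was not tested. The members are short transcripts, with a median of 639 bases against 2501 over all genes. The median within-group SD of a member was 0.133 on the log2 scale, against 0.169 over all genes.

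**Figure D5:**
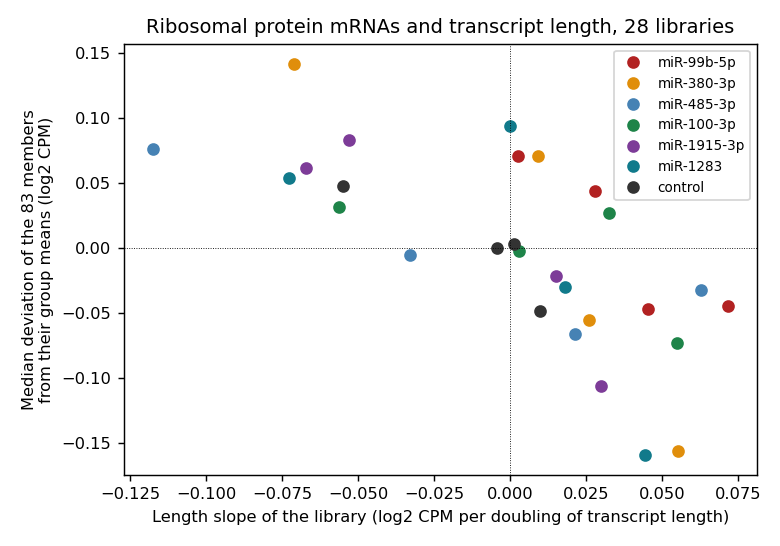
Median deviation of the 83 ribosomal protein genes from their group means (log2 CPM, vertical axis) against the length slope of each of the 28 libraries (log2 CPM for each log2 unit of transcript length, horizontal axis), coloured by group. The libraries with the lowest medians, miR-1283 replicate 2 (-0.159) and miR-380-3p replicate 1 (-0.156), have positive slopes, and the highest, miR-380-3p replicate 2 (0.142), a negative one.

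The mean length slope was 0.0369 ± 0.0291 in miR-99b-5p libraries, against -0.0121 ± 0.0293 in control libraries, and its part in the results was not tested. With the slope as a covariate, 22 members were called under miR-99b-5p, 21 of them higher, or 26.5% against 21.5% of all genes. With the GC slope as the covariate it was 20 members, 17 of them higher (24.1% against 23.3%). Under miR-380-3p, miR-485-3p and miR-100-3p the length covariate gave 4, 5 and 3 called members, which is 4.82%, 6.02% and 3.61%, against 18%, 30.8% and 11.5% of all genes, and under miR-1915-3p and miR-1283 it gave 0. Without the 4 libraries with extreme slopes, 11 members were called under miR-99b-5p (9 higher and 2 lower; 13.3%, against 20.4% of all genes). Under miR-380-3p 2 were called (RPL19 and RPS27L, both lower; 2.41%, against 15%), under miR-485-3p 5 (6.02%, against 23.2%) and under miR-100-3p 1, RPS27L (1.2%, against 7.58%). The joint count without them was 21, or 25.3% against 51.8% of all genes, and 15 of the 18 main joint calls were among these; RPL22, RPL26 and RPSA were not. That setting was chosen after seeing the data. RPL4, RPL27A, RPS7 and RPL7L1 under miR-99b-5p, RPL7L1 under miR-485-3p and RPS27L under miR-100-3p were called in all of these 3 settings, as was RPS15A under miR-99b-5p.

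Other genes of the pathway were looked at beside the members, in lists written from general knowledge. Earlier results of these data were known when the lists were chosen, so their shares are only a description. Of 26 translation factors and other mRNAs with an oligopyrimidine start, 8 were higher and 2 lower under miR-99b-5p, which is 38.5% of the list, against 16.6% of all genes, with a median log2 change of 0.158 beside 0.105 in the ribosomal protein genes. The elongation factors EEF1A1 (0.20 ± 0.06) and EEF1G (0.20 ± 0.05), the initiation factor subunits EIF3H (0.23 ± 0.06) and EIF3L (0.31 ± 0.07), EIF4A2 (0.26 ± 0.09), the splicing regulator HNRNPA1 (0.33 ± 0.07), BTF3 (0.23 ± 0.07) and VIM (0.68 ± 0.13) rose. The translocase EEF2 (1924 ± 360 CPM under miR-99b-5p, against 2714 ± 196 CPM in control cells; log2 change -0.50 ± 0.11, adjusted p = 0.00229) and NACA (-0.26 ± 0.07) fell. Under miR-380-3p 4 were higher and 0 lower (EEF1B2, EIF3H, EIF4B and VIM), or 15.4% of the list, against 10.9% of all genes. Under miR-485-3p 0 were higher and 4 lower (15.4%, against 21.1%). These were HNRNPA1 (-0.78 ± 0.07) and EIF3L (-0.69 ± 0.07) beside EIF3F and VIM. Under miR-100-3p VIM alone was lower (3.85%, against 5.96%). Under miR-1915-3p only PABPC1, which binds poly(A) tails, was called (3.85% of the list, against 0.246% of all genes). It stood at 598 ± 76.8 CPM under the mimic, against 1538 ± 65.9 CPM in control cells (log2 change -1.36 ± 0.09, adjusted p = 7.29e-10). None of the list was called under miR-1283.

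Of 14 tested regulators of ribosomal protein synthesis, MTOR and MYCN were lower and EIF4EBP2, an inhibitor of cap-dependent initiation, was higher under miR-99b-5p. This was 21.4% of the list, against 16.6% of all genes. MTOR stood at 71.2 ± 4.87 CPM under miR-99b-5p, against 135 ± 10.2 CPM in control cells (log2 change -0.93 ± 0.07, adjusted p = 7.83e-10), and MYCN at -0.56 ± 0.08. The members of the ribosome had a median log2 change of 0.105 in their messenger RNA under this mimic. Counts of messenger RNA do not show translation, and a link between these regulators and the members was not tested under any mimic. MYCN was also lower under miR-380-3p (-0.32 ± 0.08) and miR-1915-3p (-0.40 ± 0.08) and higher under miR-100-3p (0.34 ± 0.08), with member medians of 0.037, 0.047 and -0.011. Under miR-380-3p the cap-binding protein EIF4E was lower too (-0.30 ± 0.08). Under miR-485-3p the S6 kinases RPS6KB1 (-0.92 ± 0.10) and RPS6KB2 (-0.41 ± 0.15) were lower and EIF4EBP2 was higher (0.55 ± 0.08), and none of the regulators was called under miR-1283. The called share of the regulators was 14.3% under miR-380-3p and 21.4% under miR-485-3p, against 10.9% and 21.1% of all genes. It was 7.14% under miR-100-3p and under miR-1915-3p, against 5.96% and 0.246%.

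The 77 ribosomal proteins of the mitochondrion, which serve a separate ribosome, had 1 member higher and 9 lower under miR-99b-5p, with a median of -0.095 (13% called, against 16.6% of all genes). Their counts were 1 and 4 under miR-380-3p (6.49%, against 10.9%), 5 and 6 under miR-485-3p (14.3%, against 21.1%), 2 and 0 under miR-100-3p (2.6%, against 5.96%), and 0 and 0 under miR-1915-3p and miR-1283. MRPS18B (-0.76 ± 0.09 under miR-485-3p) and MRPL3 (-0.56 ± 0.07 under miR-380-3p) had the smallest p-values, and both changes were larger than that of any cytosolic member under any mimic. Of 14 chaperones and importers of ribosomal proteins, HEATR3 was lower under miR-380-3p and miR-100-3p (-0.26 and -0.27, each ± 0.07), the importer TNPO1 was lower under miR-380-3p (-0.47 ± 0.13), NOB1 was higher under miR-485-3p (0.32 ± 0.08) and PDCD2 was higher under miR-100-3p (0.24 ± 0.06). None of the 14 was called under miR-99b-5p, miR-1915-3p or miR-1283. Under miR-380-3p, miR-485-3p and miR-100-3p the called shares were 14.3%, 7.14% and 14.3%, against 10.9%, 21.1% and 5.96% of all genes.

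Of 8 genes of the 5S particle and p53 route, CDKN1A, the cell-cycle inhibitor that p53 induces, was higher under miR-99b-5p (75.6 ± 14.5 CPM under the mimic, against 36.7 ± 10.3 CPM in control cells; log2 change 1.04 ± 0.23, adjusted p = 0.00159). RRS1, an assembly factor of the 5S particle, was lower (-0.53 ± 0.10), and MDM2 was lower under miR-485-3p (-0.42 ± 0.08). No other gene of this list was called under any mimic. The called shares were 25% under miR-99b-5p and 12.5% under miR-485-3p, against 16.6% and 21.1% of all genes. RPL36AL and RACK1, which fall outside the symbol rule, were not called under any mimic, and RACK1 had its highest change, 0.20 ± 0.07, under miR-99b-5p (adjusted p = 0.0587).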

How the data were processed

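Messenger RNA of 28 libraries, prepared with a TruSeq stranded kit per the labels, was deposited by the authors as 1 table of expected counts per gene, which need not be whole. STAR and build hg19 appear in the submitters' processing notes; the counting tool, its strand setting and the annotation are not given in the sources used here. Columns without a sample numbered 0.

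The counts were rounded and analysed in R 4.3.3 with edgeR 4.0.16: genes passing filterByExpr (15058), TMM factors (0.948 to 1.03), 1 quasi-likelihood model over all 7 groups with 21 residual degrees of freedom, and Benjamini-Hochberg adjustment over all genes. The biological coefficient of variation was 12.2%. CPM are TMM-scaled. DESeq2 1.42.0, limma-voom (limma 3.58.1), other scalings, filters, covariates and left-out libraries were alternatives. The edgeR test was also tested on simulated data; DESeq2 and limma-voom were not. Positions are from GENCODE v29 (GRCh38), not the build of the counts; sequences are from RefSeq, or, for 3′ UTR sites, from GENCODE v29 transcripts.

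The members and lists were chosen with earlier results of these data known. Named genes were those called in a comparison or the joint test (the 12 with the smallest joint p in full), the 3 highest and 3 lowest changes per mimic, and a fixed set of members, paralogues and regulators; lists were named by their called genes, and the mitochondrial list by its 2 smallest p-values. All totals lay between 10992874 and 23296088 counts, and no pair of libraries within a group agreed within counting noise. Some members are not reported here by name.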

Additional observations from a re-analysis of the deposited data

Results flagged for a closer look

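Of 91 groups of 4 libraries examined for a library far from the others, 5 had one; chance gives about 1 in 20. RPL11 had 1548 CPM in miR-99b-5p replicate 2, against 1347 CPM in the nearest library of that group, and 1015 CPM in miR-485-3p replicate 3, against 1141 CPM in the nearest. RPSA had 1335 CPM in miR-485-3p replicate 5, with the nearest library at 1468 CPM. RPS7 had 1070 CPM in miR-1915-3p replicate 4, with the nearest at 996.8 CPM. RPS27A had 608.2 CPM in miR-1283 replicate 4, with the nearest at 623.5 CPM.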

How the results depend on the processing

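The main counts of called members were 5 under miR-99b-5p, 0 under miR-380-3p, 1 under miR-485-3p, 1 under miR-100-3p and 18 in the joint test. Under miR-99b-5p the count was 2 with no filter (2.41%, against 6.58% of all genes) and 8 with only the 8 libraries compared (9.64%, against 20.6%). It was 20 with the GC slope (24.1%, against 23.3%) and 22 with the length slope as covariate (26.5%, against 21.5%), with medians of 0.146 and 0.169. Without the 4 libraries with extreme slopes it was 11 (13.3%, against 20.4%). With library-size scaling it was 5, of which 2 were higher and 3 lower (6.02%, against 15.3%). RPL4 and RPL27A were called in each of these settings, while RPL7L1 and RPS7 were lost with library-size scaling, with no filter and with the replicate block, and RPS15A with no filter, the block, upper-quartile scaling, a mean CPM of at least 5, only the 8 libraries, and without the suffixed libraries. Under miR-380-3p the count was 1 with DESeq2, with limma-voom and with the replicate block (1.2%, against 11.9%, 10.9% and 11.6% of all genes). It was 4 with the GC or the length slope (4.82%, against 18.6% and 18%) and 2 without those 4 libraries (2.41%, against 15%). Under miR-485-3p it was 2 with median-of-ratios or upper-quartile scaling and with TMM without the ribosomal protein rows. It was also 2 with DESeq2 and with a mean CPM of at least 5. Each of these was 2.41%, against 20.1% to 24.8% of all genes. It was 0 with no filter (against 7.91%) or only the 8 libraries (against 14.2%). With the GC slope, with the length slope or without the 4 libraries (median -0.068) it was 5, or 6.02%, against 32.3%, 30.8% and 23.2%. Under miR-100-3p it was 2 with library-size scaling (2.41%, against 5.11%) and 3 with the length slope (3.61%, against 11.5%). The joint count was 36 with the GC slope (43.4%, against 64.8% of all genes) and 45 with the length slope (54.2%, against 61.7%). It was 21 without the 4 libraries (25.3%, against 51.8%) and 11 without the suffixed libraries (13.3%, against 43.2%). The slopes were computed from the same libraries and so hold group differences too; the cause of these shifts was not tested. Leaving out each library in turn gave 2 to 7 called members under miR-99b-5p, 0 to 3 under miR-380-3p (3 without its replicate 1), 0 to 2 under miR-485-3p, 0 to 2 under miR-100-3p, 0 to 0 under miR-1915-3p and miR-1283, and 9 to 24 in the joint test (9 without miR-99b-5p replicate 3 or 4); the medians ran from 0.073 to 0.126, -0.002 to 0.071, -0.05 to -0.007, -0.038 to 0.009, 0.016 to 0.076 and -0.054 to 0.036, the last 0.036 without miR-1283 replicate 2. Without mitochondrially encoded rows the shares were 8.2478%, 8.2035%, 7.6818%, 7.7358%, 8.0895% and 7.7075% under the mimics in the same order, against 7.8665% in control cells. RPS12 under miR-1283 stood at 0.069, and at -0.003 (without control replicate 5) to 0.111 when libraries were left out. Same-numbered libraries had deviations correlated at -0.475 to 0.713 (median 0.0709, 31 of 67 pairs over 0.1). Libraries of different numbers had a median of -0.0121, with 83 of 269 pairs over 0.1. Of 28 libraries, 8 were closest to their own number. Whether equal numbers mark a shared batch is not stated and was not tested. The block gave 4 called members under miR-99b-5p (4.82%, against 17.7% of all genes): RPL4 and RPL27A of the main 5, with RPL7 and RPL7A. It gave 1 under miR-485-3p (1.2%, against 23.2%), 1 under miR-100-3p (1.2%, against 6.48%) and 16 in the joint test (19.3%, against 52%).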
